A study of Mus musculus with 8 samples.

Results

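The nuclear genes of the last 3 complexes of the mitochondrial respiratory chain were followed in white quadriceps of mice that lack the mitochondrial thioesterase Acot2 in muscle. They were taken by name: every row starting with Uqcr, Cox4, Cox5, Cox6, Cox7, Cox8 or Atp5, together with Cyc1 and Cycs. This found 52 of the 54091 rows, and the 42 with 10 or more normalized reads in 4 or more libraries are described here as the members. They are 9 genes of complex III, the somatic cytochrome c gene Cycs, 15 genes of complex IV, 15 genes of complex V, and Atp5s and Atp5sl, a pair caught by their names. The measured values did not choose them, apart from the minimum of reads.

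The 8 libraries came from 8 male mice on regular chow, aged 11 to 14 weeks, with muscle taken in the morning. The 4 Cre mice (libraries Cre 5 to Cre 8) carried a Cre recombinase under the muscle creatine kinase promoter, labelled CKM, and are labelled as Acot2 knockout in muscle. The 4 Loxp mice (libraries Loxp 1 to Loxp 4) had the genotype Loxp/Loxp, with no Cre named. The groups therefore differed in both the recombinase and Acot2, and the effects of these cannot be told apart.

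Electrons that enter the respiratory chain reach complex III (the cytochrome bc1 complex) as reduced quinone, pass through cytochrome c to complex IV (cytochrome c oxidase), and there reduce oxygen to water. Both complexes pump protons out of the matrix, and complex V (ATP synthase) lets them flow back to make ATP. Most subunits are encoded in the nucleus and a few in the mitochondrial genome. In heart and skeletal muscle, several small subunits of complex IV come mainly from muscle genes (Cox6a2, Cox7a1, Cox8b) that have paralogs widely expressed in other tissues (Cox6a1, Cox7a2, Cox8a). White muscle is rich in fast glycolytic fibres, which hold fewer mitochondria than oxidative fibres.

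The libraries held 30415432 to 48834289 recovered reads. The members took 0.849%, 0.911%, 1.17% and 1.04% of all reads in Cre 5 to Cre 8, against 0.929%, 0.741%, 1.09% and 0.897% in Loxp 1 to Loxp 4. Acot2 had 43.8, 42.8, 53.7 and 48.9 normalized reads in the Cre libraries and 213, 149, 251 and 240 in the Loxp libraries. The groups did not overlap, in the direction of the labels. The Cre mean was 0.22 of the Loxp mean, so Acot2 reads were fewer but not absent. The fast glycolytic fibre genes Myh4, Pvalb, Actn3 and Mylpf had summed levels of 3206066 to 3952388 normalized reads in Cre and 3441281 to 4213164 in Loxp libraries, so these defining genes of white fibres were abundant throughout. The libraries differed in other fibre types and in fat-cell genes within each group, and their values are given with the results they touch.

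The levels of the members differed with their role and isoform. They are compared here as normalized reads per kb of the principal coding transcript. The order of genes depends on this length. The union of annotated exons is 4237 bases for Atp5b and 3567 for Cox6c, against transcripts of 1916 and 503, while for Cox6a2 both lengths are 680. In complex III the range over 9 genes was 4422 to 13395 per kb in Cre and 4101 to 12515 per kb in Loxp libraries. Uqcrb, a subunit bound near the quinone site, was highest, at 13395 ± 1125 per kb in Cre and 12515 ± 1119 in Loxp libraries (SD, n = 4 each). Uqcr11, a small subunit, followed at 11265 ± 1725 per kb in Cre and 10674 ± 1295 in Loxp libraries, and Uqcrh (the hinge protein) and Uqcr10 lay within that SD in either group. Cyc1, the haem protein that hands electrons to cytochrome c, was lowest of the complex, at 4422 ± 667 per kb in Cre and 4101 ± 489 in Loxp libraries. Cycs, the mobile carrier itself, had 2174 ± 289 per kb in Cre and 2015 ± 328 in Loxp libraries over a transcript of 3123 bases.

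In complex IV, 5 genes stood close together at the top. Cox6c had 17744 ± 2772 per kb in Cre and 16329 ± 2172 in Loxp libraries. Cox4i1, the common isoform of subunit IV, had 17375 ± 2317 per kb in Cre and 16242 ± 2206 in Loxp libraries. Cox6a2, Cox5a and Cox8b came next, with 16933 ± 1618, 16554 ± 1868 and 15971 ± 1678 per kb in Cre libraries, and neighbours in this order did not differ beyond their SD. Of these 5, Cox6a2 and Cox8b are muscle-type genes. The lowest complex IV gene was Cox4i2, the lung isoform of subunit IV, with 51.3 ± 15.2 per kb in Cre and 49.9 ± 7.91 in Loxp libraries.

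By the length of the principal transcript, complex V held the most abundant member of all. Atp5b, the catalytic beta subunit, had 34729 ± 4488 per kb in Cre and 32284 ± 3554 in Loxp libraries, above every other member by more than the SD of either. Atp5e (epsilon) followed at 16058 ± 2383 per kb in Cre and 15074 ± 2103 in Loxp libraries, with Atp5c1 (gamma) within that SD at 15762 ± 2113 and 14279 ± 1647 per kb. Atp5a1, the alpha subunit that alternates with beta in the enzyme's head, had 13482 ± 1794 per kb in Cre and 12416 ± 1552 in Loxp libraries. The lowest genes of complex V were Atp5g2, 1 of the 3 genes for the same mature c subunit of the membrane rotor, with 2036 ± 213 per kb in Cre and 1909 ± 150 in Loxp libraries, and Atp5l, the g subunit, with 1799 ± 173 and 1748 ± 202 per kb. Both share most of their transcript with other genes of the annotation, as described further on. Atp5s and Atp5sl, which are not subunits, had 275 ± 26.8 and 282 ± 49.0 per kb in Cre against 275 ± 22.2 and 245 ± 38.2 per kb in Loxp libraries.

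**Figure D1:**
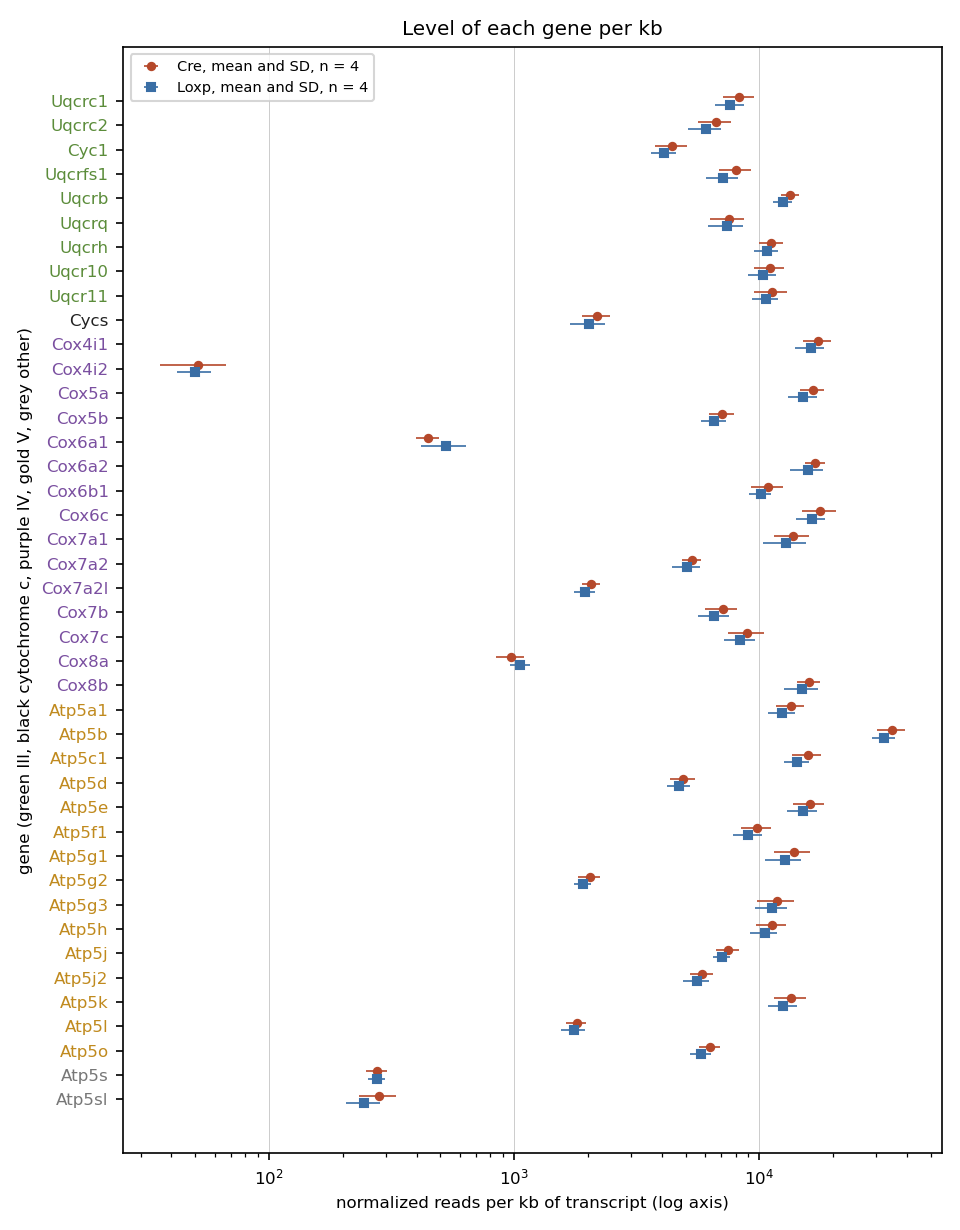
Level of each of the 42 members in normalized reads per kb of transcript (log axis), with the mean and SD of the 4 Cre (circles) and 4 Loxp (squares) libraries. Atp5b stood highest in both groups and Cox4i2 lowest, and for each gene the bars of the groups overlap.

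No member passed the test between Cre and Loxp muscle, and the differences were small. In limma with Benjamini-Hochberg adjustment over 13638 genes, 0 of 42 members had an adjusted p under 0.05 (0.0147% of all genes tested did), and the smallest adjusted p was 0.9995. In limma, 0 of 42 reached an unadjusted p under 0.05 (2.91% of all genes did), and limma-voom on recovered reads also called 0. Log2 fold changes, Cre minus Loxp, ran from -0.23 for Cox6a1 to 0.20 for Atp5sl, with SE of 0.081 to 0.27. The groups overlapped for every member, so that 0 of 42 separated them (1.92% of all genes did). The outermost bounds of the 95% intervals were -0.59 and 0.59, both for Cox4i2, which had 37.8 reads per library on average. The median SE over the members was 0.11.

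Most fold changes lay on the same side of 0. Of the 42 members, 39 had a fold change above 0 (51.7% of all genes did), with a median of 0.098 on the log2 scale over the members and 0.0049 over all genes. This count rested on single libraries. Without Loxp 2 it was 26 of 42 with a median of 0.011, and without Cre 7 it was 28 of 42 with a median of 0.020. Cre 7 and Cre 8 had the most slow fibre transcripts and, of the Cre libraries, the largest shares of reads in the members. Without both, the count was 9 of 42 with a median of -0.033. With library weights it was 34 of 42 with a median of 0.038.

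By role, all 9 genes of complex III had a fold change above 0, with a median of 0.10 on the log2 scale, and without Loxp 2 or without Cre 7 it was 6 of 9. Uqcrfs1, the Rieske iron-sulfur protein that moves an electron from quinol to cytochrome c1, had the largest value of a subunit. It had 9198, 10505, 13113 and 11073 normalized reads in Cre 5 to Cre 8, against 9656, 8051, 11571 and 9575 in Loxp 1 to Loxp 4. Cre 7 was highest and Loxp 2 lowest, and Loxp 3 lay above 3 of the 4 Cre libraries. Its log2 fold change was 0.18 (SE 0.12, 95% interval -0.09 to 0.44, limma adjusted p = 0.9995), and it was 0.086 without Cre 7 and 0.090 without Loxp 2. Uqcrb and Uqcr11, the most abundant of the complex, were at 0.10 (SE 0.081) and 0.07 (SE 0.11), with 0.034 and -0.0063 without Loxp 2 and 0.045 and -0.024 without Cre 7.

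Cycs had 6038, 6465, 8102 and 6550 normalized reads in Cre 5 to Cre 8, against 6617, 4865, 7292 and 6405 in Loxp 1 to Loxp 4. Its high and low libraries were again Cre 7 and Loxp 2, and the other 6 overlapped. The log2 fold change was 0.12 (SE 0.12, limma adjusted p = 0.9995) and -0.0030 without Loxp 2.

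In complex IV, 13 of 15 genes lay above 0 and 2 below, with a median of 0.096 on the log2 scale, and without Loxp 2 or without Cre 7 it was 9 of 15 above 0. Cox4i1 had 10931, 12611, 15121 and 13115 normalized reads in Cre 5 to Cre 8, against 12369, 9915, 13902 and 12214 in Loxp 1 to Loxp 4. Its log2 fold change was 0.10 (SE 0.11), with Loxp 3 above 3 of 4 Cre libraries, and it was 0.0059 without Loxp 2 and 0.020 without Cre 7. Cox6c, a small subunit, was at 0.12 (SE 0.12), with 0.025 without Loxp 2 and 0.030 without Cre 7. The 2 genes below 0 were Cox6a1 at -0.23 (SE 0.15, limma adjusted p = 0.9995) and Cox8a at -0.13 (SE 0.10, limma adjusted p = 0.9995), both non-muscle isoforms.

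In complex V, all 15 genes lay above 0, with a median of 0.097 on the log2 scale, and it was 10 of 15 without Loxp 2 and 11 of 15 without Cre 7. Atp5b had 56681, 63969, 77268 and 68247 normalized reads in Cre 5 to Cre 8, against 62461, 53334, 69986 and 61644 in Loxp 1 to Loxp 4. Loxp 3 lay above 3 of the 4 Cre libraries, and the log2 fold change was 0.10 (SE 0.11), at 0.034 without Loxp 2 and 0.028 without Cre 7. Atp5o, the OSCP subunit that ties the head of the enzyme to its stalk, had the smallest p of the complex. It had 4699, 5284, 5998 and 5138 normalized reads in Cre 5 to Cre 8, against 5078, 4167, 5283 and 4844 in Loxp 1 to Loxp 4, a log2 fold change of 0.12 (SE 0.090, limma adjusted p = 0.9995). Cre 5 lay below 3 of the 4 Loxp libraries, and the fold change was 0.054 without Loxp 2 and 0.062 without Cre 7. Atp5e was at 0.09 (SE 0.12), with -0.0014 without Loxp 2 and -0.0038 without Cre 7.

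The members that are not subunits differed from each other. Atp5sl, a name for Dmac2, which takes part in the assembly of complex I, had 554.7, 590.5, 785.6 and 760.0 normalized reads in Cre 5 to Cre 8, against 572.3, 471.2, 692.5 and 602.8 in Loxp 1 to Loxp 4. Cre 7 and Cre 8 were its highest libraries, the others overlapped, and the log2 fold change was 0.20 (SE 0.14, limma adjusted p = 0.9995), at 0.10 without Loxp 2 and -0.017 without Cre 7 and Cre 8. Atp5s, also named Dmac2l and known as factor B, had a fold change of -0.0016 (SE 0.096).

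**Figure D2:**
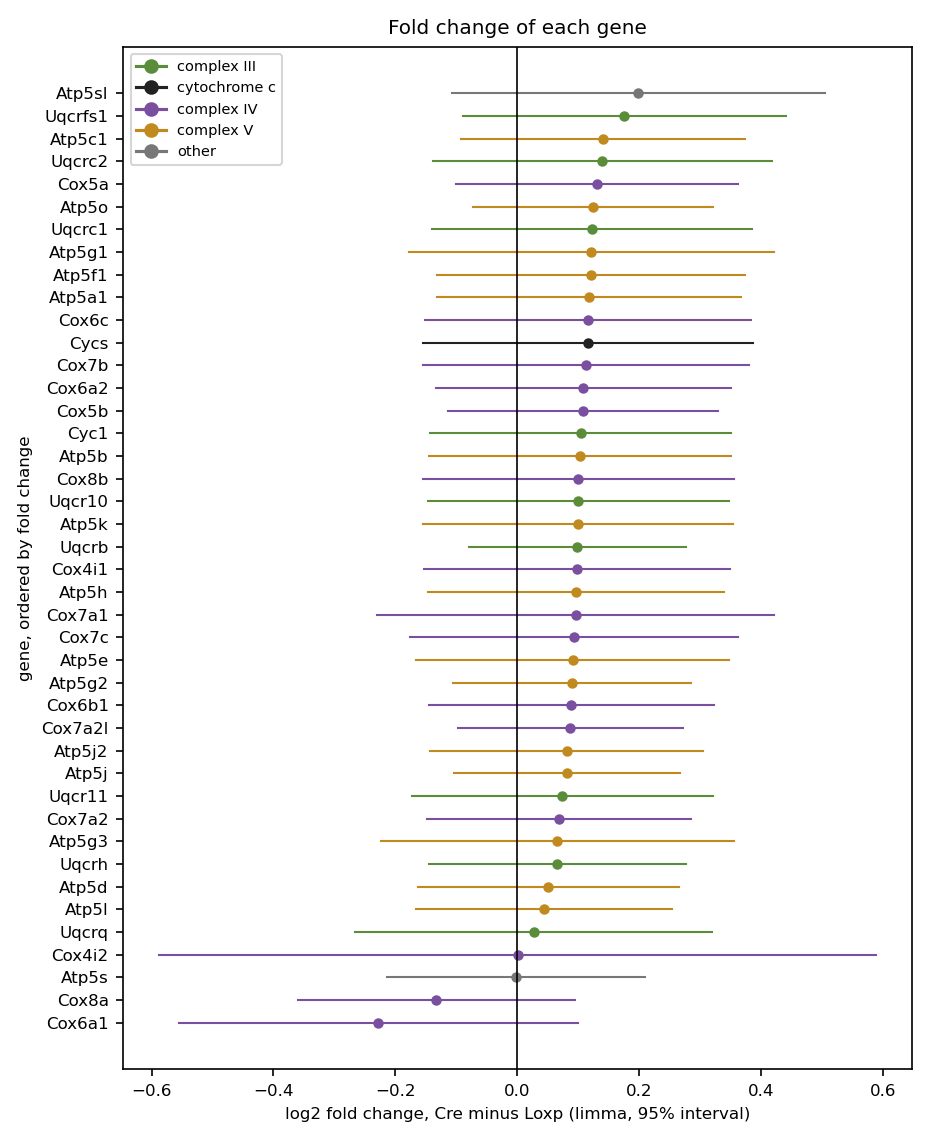
Log2 fold change of each member, Cre minus Loxp, with its 95% limma interval, coloured by complex. The points run from -0.23 for Cox6a1 to 0.20 for Atp5sl, and every interval crosses 0.

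The members moved together from library to library, within both groups. Of the 42, 39 were highest in Cre 7 (18.6% of all genes were), and 37 were lowest in Loxp 2 (18.6% of all genes). The median log2 deviation of the members from their own means was -0.16, -0.0036, 0.29 and 0.065 in Cre 5 to Cre 8, against -0.014, -0.31, 0.15 and -0.033 in Loxp 1 to Loxp 4. The SD of this median within the groups, pooled over both, was 0.19, against a median log2 fold change of the members of 0.098. The 3 complexes moved alike: in Cre 7 their medians were 0.30 for complex III, 0.25 for complex IV and 0.28 for complex V, and in Loxp 2 they were -0.32, -0.32 and -0.30.

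A member's highest library exceeded its lowest by 1.52 fold at the median, between 1.26 fold for Atp5s and 2.18 fold for Cox4i2. The SD of a member's log2 value over the 8 libraries had a median of 0.19. Once the median deviation of each library was subtracted, that SD had a median of 0.053 and was under 0.1 for 36 of the 42. The subtracted medians come from the same 42 members, so part of this fall is built in. Cox4i1 followed the common pattern most closely, with 0.017 left, and Uqcr10 and Atp5f1, the b subunit of the complex V stalk, were next with 0.020 and 0.021. All members share the same library totals and scaling, which such a pattern also contains.

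**Figure D3:**
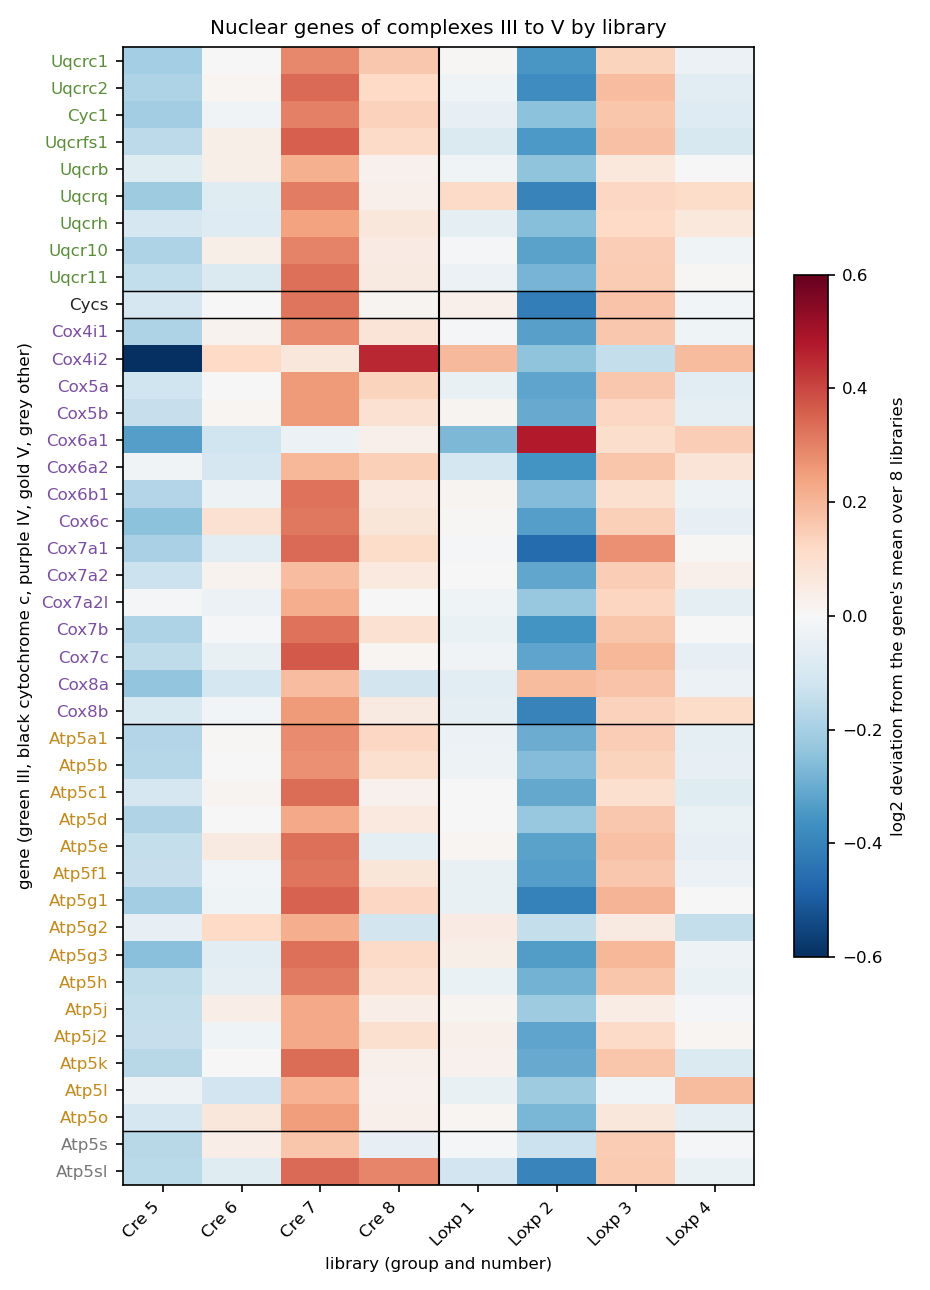
Log2 deviation of each member from its own mean over the 8 libraries, with Cre libraries left of the line and Loxp libraries right of it. Cre 7 is red for nearly all genes and Loxp 2 blue, with medians of 0.29 and -0.31, and Cox6a1 and Cox8a stand out in Loxp 2.

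The 6 members with 0.1 or more left were Cox6a1 (0.35), Cox4i2 (0.30), Cox8a (0.21), Atp5l (0.13), Atp5g2 (0.13) and Atp5sl (0.11). Cox6a1, the liver-type subunit VIa, had 217, 252, 267 and 280 normalized reads in Cre 5 to Cre 8, against 227, 381, 294 and 303 in Loxp 1 to Loxp 4. It was highest in Loxp 2, where 37 of the members were lowest, and Loxp 1 lay below 3 of the 4 Cre libraries. Without Loxp 2 its log2 fold change was -0.11. With 281 reads per library on average, counting error alone gives an SD of 0.086 on the log2 scale, against 0.25 observed. Cox8a, the liver-type subunit VIII, had 470, 516, 630 and 514 normalized reads in the Cre libraries, against 531, 632, 625 and 541 in the Loxp libraries. Loxp 2 and Cre 7 were its highest libraries and Cre 5 its lowest.

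Cox4i2 had 22.7, 39.1, 37.7 and 49.6 normalized reads in Cre 5 to Cre 8, against 41.2, 30.2, 32.5 and 41.1 in Loxp 1 to Loxp 4, with both extremes in the Cre group. Its counting SD of 0.23 was a large part of its observed SD of 0.33 on the log2 scale. Its log2 fold change was 0.00071 (SE 0.27, limma adjusted p = 0.9995), and the sign turned to -0.00063 under trimmed-mean (TMM) scaling.

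In bulk muscle, fewer cells of a type and less RNA per cell cannot be told apart, so levels of genes from other fibres and cells are given beside the order of the libraries. Myh2, the myosin of oxidative fast fibres, had 4409, 6512, 50678 and 51585 normalized reads in Cre 5 to Cre 8, against 7832, 797, 73690 and 50366 in Loxp 1 to Loxp 4. With Myh1 added, the summed level ran from 77008 to 276294 normalized reads in Cre and from 49864 to 281110 in Loxp libraries. Loxp 2 and Cre 5 were the lowest libraries both for this sum and for the median of the members. Its 3 highest libraries, Loxp 3, Cre 8 and Cre 7, were also the 3 highest for the members. Loxp 4 departed from this order. Its sum was 223592 normalized reads, against 139994 in Cre 6 and 126921 in Loxp 1. Its median of the members, -0.033, lay below theirs, at -0.0036 and -0.014.

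Of 8 slow fibre genes, 7 had a fold change above 0, and 0 passed. Their summed level ran from 1642 to 17979 normalized reads in Cre and from 1740 to 2566 in Loxp libraries. Myh7, the slow myosin, had 11.8, 35.5, 2133 and 7430 normalized reads in Cre 5 to Cre 8, against 12.1, 7.83, 40.1 and 34.6 in Loxp 1 to Loxp 4. Only Cre 7 and Cre 8 exceeded 1000, and without them the count of members above 0 was the 9 of 42 given before. Among the Cre libraries they also had the highest medians of the members, 0.29 and 0.065. Leaving them out therefore lowers the Cre means whatever their Myh7. Of this pair, Cre 8 had more Myh7 and the lower median. The part of slow fibres in these values was not tested.

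Of 6 adipocyte genes, 5 had a fold change below 0, and 0 passed. Their summed level ran from 14948 to 57171 normalized reads in Cre and from 9147 to 72634 in Loxp libraries, most of it Car3, which muscle fibres also express. The other 5, Adipoq, Plin1, Cfd, Lep and Cidec, had mean levels in Cre libraries of 0.147 to 0.167 of those in Loxp libraries, with overlapping groups. Their sum was 1080, 364, 840 and 988 normalized reads in Cre 5 to Cre 8, against 1556, 13625, 5833 and 483 in Loxp 1 to Loxp 4. Plin1, which coats fat droplets, had 109, 41.6, 91.4 and 70.1 normalized reads in Cre 5 to Cre 8, against 158, 1322, 586 and 56.3 in Loxp 1 to Loxp 4. Loxp 2 was highest for Plin1, Cox6a1 and Cox8a alike. For Cox8a, Cre 7 and Loxp 3 were nearly level with Loxp 2, at 630 and 625 against 632 normalized reads. Plin1 was at 91.4 in Cre 7 and 586 in Loxp 3. For Cox6a1, Loxp 4 and Loxp 3 came next and lay close together, at 303 and 294 normalized reads, with Plin1 at 56.3 and 586. Without Loxp 2 and Loxp 3, Cox6a1 was at -0.053 and Cox8a at -0.018 on the log2 scale, with 37 of 42 members above 0. The part of fat cells in these values was not tested. Of the brown fat genes, Elovl3 was at 0 in every library and Ucp1 at no more than 1.12 normalized reads. Cidea, from the same list, had 1.22 to 10.3 normalized reads in Cre and 1.01 to 86.2 in Loxp libraries, with its highest values in Loxp 2 and Loxp 3, and Ppargc1a exceeded 1000 in all 8.

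**Figure D4:**
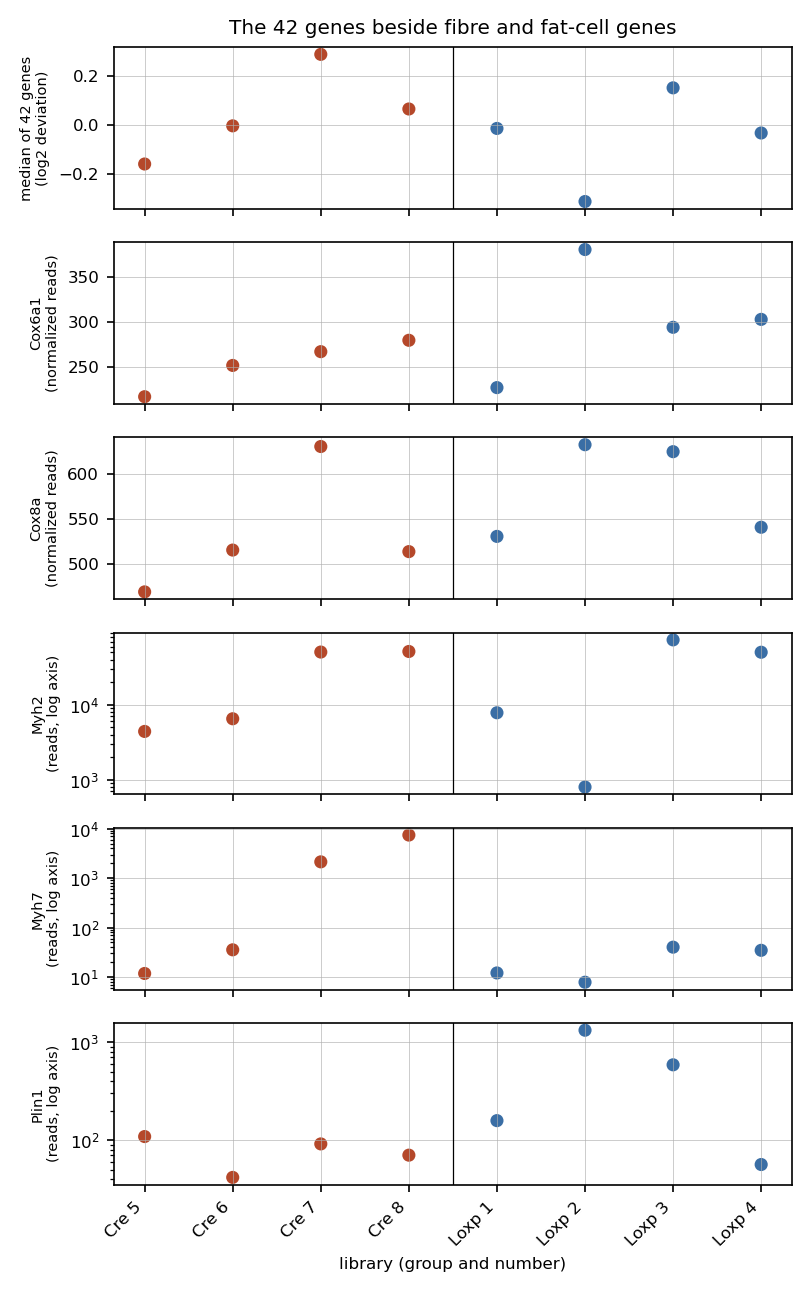
Median log2 deviation of the 42 members (top), and normalized reads of Cox6a1, Cox8a, Myh2, Myh7 and Plin1 (the last 3 on log axes), for each Cre library (left) and Loxp library (right). Loxp 2 is lowest for the median and for Myh2 and highest for Cox6a1, Cox8a and Plin1.

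Paralog ratios set a gene against its relative within the same library, so the factor that scales a library cancels. The ratios of Cox6a2 to Cox6a1, Cox7a1 to Cox7a2 and Cox8b to Cox8a set a muscle gene against a non-muscle one, and the other ratios do not. Of the 9 pairs looked for, 6 had enough reads for both genes. Each ratio was compared with an exact two-sided permutation test of its log2 value over the 70 regroupings, with adjustment over the 6 pairs, and the smallest p that 4 against 4 libraries allow is 0.0286. Under this adjustment a pair at the smallest p has an adjusted p of 0.171 on its own, and 4 pairs would have to reach it for any to pass, so the test could hardly call a single pair. The adjusted p values were 0.286 to 0.857, and the values by library are what the pairs are described by.

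Promoters of complex IV genes from these ratios are shown with the letters of common respiratory-gene motifs in capitals. Cox6a2, the muscle gene set against Cox6a1, was not matched to a promoter, nor were Cox4i1 and Cox4i2. Those of the Atp5g genes are not shown. They come from RefSeq on GRCm38.p6 and run from 250 bases before to 50 after each start, 5′ to 3′ on the gene's strand. The muscle-type genes shown are Cox7a1 (chr7:30183921-30184220, plus strand) and Cox8b (chr7:140900397-140900696, minus strand). The non-muscle genes shown are Cox7a2 (chr9:79759804-79760103), Cox8a (chr19:7217567-7217866) and Cox6a1 (chr5:115348909-115349208), all on the minus strand. The capitals mark CCAAT boxes in Cox7a1, Cox8a and Cox6a1, Sp1 boxes in Cox7a2 and Cox6a1, E-boxes in Cox8b, ETS motifs in Cox8a and Cox6a1, and NRF-1 motifs in Cox6a1, on either strand, with the letters of each motif given further on.
Cox7a1: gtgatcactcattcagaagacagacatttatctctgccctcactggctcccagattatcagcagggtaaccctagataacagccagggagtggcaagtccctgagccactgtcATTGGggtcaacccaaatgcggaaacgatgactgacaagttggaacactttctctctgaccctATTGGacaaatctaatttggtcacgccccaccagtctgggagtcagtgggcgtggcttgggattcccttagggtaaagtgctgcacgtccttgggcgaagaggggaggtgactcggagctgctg
Cox8b: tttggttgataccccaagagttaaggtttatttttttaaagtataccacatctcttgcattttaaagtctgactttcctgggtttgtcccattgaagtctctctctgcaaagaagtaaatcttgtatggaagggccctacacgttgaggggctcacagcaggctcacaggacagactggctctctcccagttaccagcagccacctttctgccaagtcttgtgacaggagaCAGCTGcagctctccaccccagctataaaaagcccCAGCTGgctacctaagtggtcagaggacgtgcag
Cox7a2: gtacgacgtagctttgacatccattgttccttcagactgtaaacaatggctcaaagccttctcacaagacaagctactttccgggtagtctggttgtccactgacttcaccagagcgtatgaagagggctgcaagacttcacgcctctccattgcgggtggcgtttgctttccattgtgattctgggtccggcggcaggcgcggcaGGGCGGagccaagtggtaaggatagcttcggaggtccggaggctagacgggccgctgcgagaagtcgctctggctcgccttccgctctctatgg
Cox8a: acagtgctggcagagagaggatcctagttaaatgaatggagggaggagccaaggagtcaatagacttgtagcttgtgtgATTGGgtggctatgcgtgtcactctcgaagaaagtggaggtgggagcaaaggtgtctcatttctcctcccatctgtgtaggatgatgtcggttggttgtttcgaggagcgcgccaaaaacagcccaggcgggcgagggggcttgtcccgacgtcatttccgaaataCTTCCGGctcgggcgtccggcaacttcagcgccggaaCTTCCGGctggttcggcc
Cox6a1: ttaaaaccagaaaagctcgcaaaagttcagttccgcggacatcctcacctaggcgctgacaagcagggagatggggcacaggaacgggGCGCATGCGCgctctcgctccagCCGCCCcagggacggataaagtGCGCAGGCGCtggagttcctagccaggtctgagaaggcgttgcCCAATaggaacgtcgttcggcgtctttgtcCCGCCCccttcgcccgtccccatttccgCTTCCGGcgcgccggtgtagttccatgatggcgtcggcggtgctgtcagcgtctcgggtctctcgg

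Cox6a2 exceeded Cox6a1 per kb by 42.1, 34.4, 39.8 and 36.6 fold in Cre 5 to Cre 8, against 38.0, 19.1, 35.4 and 32.3 fold in Loxp 1 to Loxp 4. Loxp 2 stood apart from the other 7 libraries, which overlapped between the groups. The mean ratio was 38.2 ± 3.43 in Cre and 31.2 ± 8.42 in Loxp libraries (SD, n = 4 each). The difference in log2 ratio was 0.34 (SE 0.23, exact permutation p = 0.143, adjusted p = 0.286), and 0.12 without Loxp 2 (exact permutation p = 0.286).

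Cox8b exceeded Cox8a per kb by 16.9, 16.2, 16.0 and 17.1 fold in Cre 5 to Cre 8, against 15.3, 10.1, 14.9 and 16.9 fold in Loxp 1 to Loxp 4. Again Loxp 2 was lowest by a wide gap, and Loxp 4 lay inside the Cre range. The means were 16.5 ± 0.523 in Cre and 14.3 ± 2.92 in Loxp libraries (SD, n = 4 each). The log2 difference was 0.23 (SE 0.16, exact permutation p = 0.0857, adjusted p = 0.286), and 0.075 without Loxp 2 (exact permutation p = 0.200).

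The pair for subunit VIIa was less lopsided. Cox7a1 exceeded Cox7a2 per kb by 2.44, 2.40, 2.84 and 2.64 fold in Cre 5 to Cre 8, against 2.54, 2.30, 2.78 and 2.51 fold in Loxp 1 to Loxp 4. The highest libraries were Cre 7 and Loxp 3 and the lowest was Loxp 2, with full overlap. The log2 difference was 0.027 (SE 0.079, exact permutation p = 0.743, adjusted p = 0.857), and it was -0.018 without Loxp 2, -0.020 without Cre 7 and -0.061 without Cre 7 and Cre 8. In each group Cox7a2 was thus a far larger share of its pair than Cox6a1 or Cox8a: it had 5290 ± 474 per kb in Cre and 5063 ± 659 in Loxp libraries, where Cox6a1 had 445 ± 47.4 and 528 ± 110 per kb, and Cox8a 968 ± 125 and 1059 ± 97.5.

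Cox4i2 stood at 0.0029 of Cox4i1 per kb in Cre and 0.0031 in Loxp libraries, with a log2 difference of -0.097 (SE 0.22, exact permutation p = 0.743, adjusted p = 0.857). That ratio rests on the few reads of Cox4i2.

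Of the 3 genes for the c subunit of complex V, Atp5g1 and Atp5g3 had the most reads, and the share of Atp5g2 is uncertain because all of its transcript is shared with other genes. Per kb, Atp5g1 stood at 1.18, 1.18, 1.16 and 1.15 times Atp5g3 in Cre 5 to Cre 8, against 1.08, 1.09, 1.15 and 1.17 times in Loxp 1 to Loxp 4. The Cre libraries lay within a narrow range, which Loxp 4 shared. The log2 difference was 0.056 (SE 0.029, exact permutation p = 0.114, adjusted p = 0.286). Which of the pair was higher depended on the length taken: with the union of all annotated exons, which is 4912 bases for Atp5g1 and 2181 for Atp5g3, the ratio was 0.433 in Cre and 0.417 in Loxp libraries. Atp5g2 stood at 0.175 ± 0.026 of Atp5g3 per kb in Cre and 0.171 ± 0.019 in Loxp libraries (SD, n = 4 each), with a log2 difference of 0.024 (SE 0.13, exact permutation p = 0.857, adjusted p = 0.857).

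**Figure D5:**
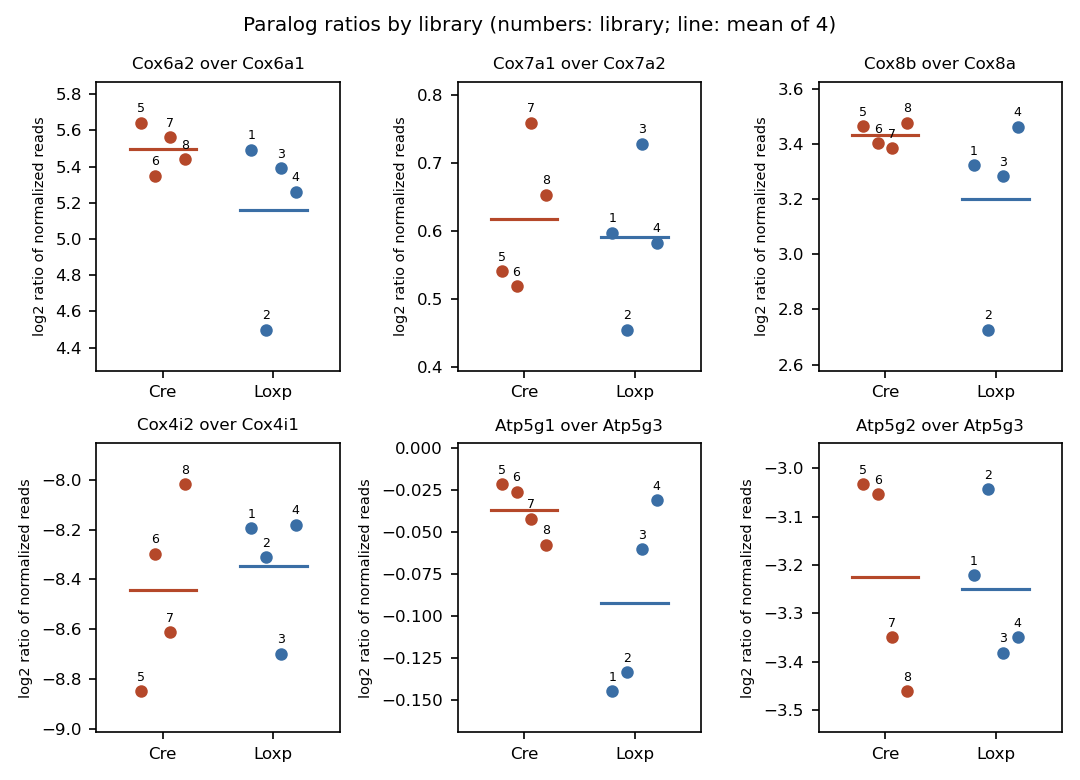
Log2 ratio of normalized reads for 6 paralog pairs in each Cre library (left) and Loxp library (right), with the library number and the group mean as a line. Loxp 2 is the low point for Cox6a2 over Cox6a1 and for Cox8b over Cox8a, with log2 ratios of 4.50 and 2.73.

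The genes that build or accompany these complexes gave the same picture, with 0 called in each list (0.0147% of all genes tested were). Of all genes, 51.7% lay above 0. The counts above 0 in these lists are given for all 8 libraries only, with none left out. Of 6 complex III assembly factors, 5 lay above 0 (median 0.037 on the log2 scale), with Uqcc1 at 0.09 (SE 0.092) and Uqcc3 at 0.09 (SE 0.097). Of 28 complex IV assembly factors, 20 lay above 0 (median 0.049), with Sco1, a copper carrier for complex IV, at 0.22 (SE 0.13) and Cox11, which also delivers copper, at 0.13 (SE 0.096). All 8 complex V assembly and accessory factors lay above 0 (median 0.060), with Atpaf2, a chaperone of the alpha subunit, at 0.08 (SE 0.081) and Atpif1, the inhibitor of the enzyme's reverse reaction, at 0.09 (SE 0.11). Complex II, which feeds electrons to complex III, had 7 of 8 genes above 0 (median 0.095), with Sdhaf2 at 0.17 (SE 0.11) and the subunit gene Sdhc at 0.12 (SE 0.098).

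The library order extended to these lists, and less fully to the complex IV and complex III factors. Cre 7 was the highest library for 7 of 8 complex V factors and 7 of 8 complex II genes. It was also highest for 14 of 28 complex IV and 3 of 6 complex III assembly factors (18.6% of all genes). Loxp 2 was the lowest for 7 of 8, 6 of 8, 18 of 28 and 4 of 6 of these genes (18.6% of all genes).

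Of 15 regulators of nuclear respiratory genes, 10 lay above 0 (median 0.065), 4 were highest in Cre 7 and 7 were lowest in Loxp 2. Of all genes, 18.6% were highest in Cre 7 and 18.6% were lowest in Loxp 2. Tfb2m, a mitochondrial transcription factor, had 856 ± 59.6 normalized reads in Cre and 775 ± 39.7 in Loxp libraries (SD, n = 4 each), at 0.14 (SE 0.073, limma adjusted p = 0.9995). Ppargc1a, the coactivator PGC-1 alpha, which drives mitochondrial gene expression, was at 0.12 (SE 0.085).

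Of the 5 mitochondrially encoded subunits with enough reads, 4 lay above 0 (median 0.082) and 0 were called. Cre 7 was the highest library for 3 of the 5 and Loxp 2 the lowest for 1. Their summed level, most of it COX1, had the same 3 highest libraries as the nuclear members, Cre 7, Loxp 3 and Cre 8, and the same lowest pair, Cre 5 and Loxp 2. COX1 had 717774 ± 129329 normalized reads in Cre and 677667 ± 110672 in Loxp libraries (SD, n = 4 each), and CYTB, the complex III subunit, had 124494 ± 15998 and 127454 ± 7512. Both were lowest in Cre 5, which for COX1 was nearly level with Loxp 2, at 557340 against 557726 normalized reads. CYTB did not share the order of the sum: it was highest in Loxp 4, at 136108 normalized reads, and Loxp 3, at 128668, lay below Cre 7 and Cre 8. COX3 and COX2 had few reads, with 141 ± 29.5 and 63.6 ± 24.3 in Cre against 110 ± 29.7 and 52.0 ± 14.9 in Loxp libraries, at 0.38 (SE 0.22) and 0.23 (SE 0.31) on the log2 scale. Both are among the 3 that were highest in Cre 7. ATP6 had 39.1 ± 9.77 in Cre and 36.8 ± 9.49 in Loxp libraries. Why these rows held so few reads beside COX1 was not tested, so their values may not measure the transcripts. The check for shared stretches given further on covered the nuclear members only. ATP8 had too few reads to be tested.

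Promoters were matched for 33 of the 42 members, by gene, in the RefSeq table on GRCm38.p6. A motif was counted on either strand within the 300 bases, beside the share among the promoters of all 27025 genes in the table and of the 10176 of them that were tested here. The NRF-1 motif (GCGCA, any base, then GCGC), named for a factor of respiratory genes, was in 7 of 33 (21.2%, against 4.78% of all and 10.4% of tested genes). The ETS motif CCGGAAG was in 9 of 33 (27.3%, against 9.12% and 18.0%), and the ERR motif AAGGTCA in 4 of 33 (12.1%, against 4.66% and 3.04%). CCAAT was in 18 of 33 (54.5%, against 37.9% and 38.3%). The Sp1 box GGGCGG was in 11 of 33 (33.3%, against 35.9% and 64.3%), and the E-box CAGCTG in Cox8b and Atp5b (6.06%, against 16.1% and 15.1%). A match describes letters only, and of the printed promoters the ETS motif was in Cox8a and Cox6a1 and the NRF-1 motif in Cox6a1.

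The members lay on 19 chromosomes of GRCm38. Chromosome 7 held 6 of them, among them Cox7a1 at 30184144 to 30186078 on the plus strand, Cox8b at 140898945 to 140900446 on the minus strand, and Cox6a2 at 128205435 to 128206387 on the minus strand. Cox7b was alone on X. The transcripts of 16 members shared no stretch of 50 bases with another gene's transcript on either strand, among them Cox7a1, Cox7a2, Cox8a, Cox8b and Atp5g3. Of the others, 5 shared over 50%: Atp5g2 (100%), Atp5l (84.9%), Atp5h (66.6%), Atp5g1 (66.0%) and Cox7c (53.0%), mostly with predicted genes. In all, 17 members shared over 10%, among them Uqcrb (43.4%), Cycs (28.5%) and Cox6c (21.2%). Reads within shared stretches may have been left out or given to another gene, so the levels of these 17 are uncertain. The ratios with Atp5g1 and Atp5g2 are uncertain too, as are, with less of the transcript shared, those with Cox6a1 (12.3%) and Cox4i1 (12.2%).

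The 10 rows with too few reads were 3 isoforms typical of testis and 7 pseudogenes. Cox8c had 0 reads in all 8 libraries, Cox7b2 had 1 and Cox6b2 had 6. The pseudogenes held at most 8 reads in a library. The row nearest below the minimum was Atp5l-ps2, with 2.87 normalized reads in its fourth-highest library, and the nearest above was Cox4i2 with 39.1.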

How the data were processed

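RNA from white quadriceps of 8 mice was sequenced from stranded libraries, per the labels. The submitters' processing notes name cutadapt, FastQC, STAR, HTSeq, DESeq2 and GRCm38, without roles or versions. The deposited values were on a log2 scale, log2(x + 1), where x is a read count over 1 factor per library, as found from the values: with the log undone, 100% of values under 1000 lay within 0.1 of whole reads. A normalized read is x.

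Groups were compared on the deposited log2 values with limma 3.58.1 (R 4.3.3, variance trend) over 13638 genes with x of 10 or more in 4 or more libraries. P-values were adjusted by Benjamini-Hochberg, with a threshold of 0.05, and the fit was tested on simulated data. The pseudocount of 1 understates changes of low genes. Libraries of a group differed by 26.0 or more in chi-square per gene, so each counted as 1 replicate. Each title ends in its own animal number, and no batch is labelled.

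Transcripts and coordinates came from GENCODE M21 on GRCm38, using the shortest principal coding transcript. The members, gene lists, pairs and motifs were chosen with earlier results of these data known. Full statistics are given for paralog pairs, for the 2 most abundant members per complex and for the 3 with the smallest p in each direction, and up to 2 genes per other list are named. Alternatives are in the closing section.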

Additional observations from a re-analysis of the deposited data

Results flagged for a closer look

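Among 96 groups of 4 libraries, formed by the 42 members and the 6 paralog ratios in each group, 2 held a library far from the other 3, measured as its gap to the nearest library over the group's whole range, and compared with Dixon's critical value. Chance gives about 1 in 20 groups. Uqcrq, a small subunit of complex III, reached 0.978 in the Loxp libraries, where Loxp 2 had 2255 normalized reads and the other 3 had 3216 to 3242. Cox7a2l, which joins complexes III and IV, reached 0.855 in the Cre libraries, where Cre 7 had 2497 normalized reads and the other 3 had 2100 to 2154.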

How the results depend on the processing

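The count of members called was 0 under every alternative run. The size of the fold changes, and for 9 of 21 named members their sign, depended on single libraries. The median of the members ran from 0.011 to 0.17 with each replicate left out in turn, and the medians by complex from 0.020 to 0.18 in complex III, 0.0059 to 0.17 in complex IV and 0.019 to 0.16 in complex V. With Cre replicates 7 and 8 left out together, these log2 fold changes turned: Cox6a2 -0.0062, Cox7a1 -0.081, Cox7a2 -0.021, Cox8b -0.0027, Cox4i2 -0.26, Cox4i1 -0.033, Atp5g1 -0.055, Atp5g3 -0.12, Uqcr11 -0.080, Cox6c -0.020, Atp5b -0.032 and Atp5sl -0.017, and so did the log2 ratio of Cox7a1 to Cox7a2, at -0.061. Without Loxp replicates 2 and 3, Cox4i2 was at -0.19 and Atp5s at 0.0086. Library weights put Cox4i2 at -0.13 and Atp5g3 at -0.015, and TMM scaling put Cox4i2 at -0.00063. With each replicate left out in turn, ranges crossed 0 for Atp5s (-0.058 to 0.053), Cox4i2 (-0.15 to 0.21), Cox7a1 (-0.042 to 0.20), Atp5g3 (-0.035 to 0.16), Uqcr11 (-0.024 to 0.14), Atp5e (-0.0038 to 0.16), Cox7a2 (-0.024 to 0.13), Cox8b (-0.016 to 0.16) and Cycs (-0.0030 to 0.19), and for the log2 ratios of Cox4i2 to Cox4i1 (-0.24 to 0.037), Atp5g2 to Atp5g3 (-0.039 to 0.10) and Cox7a1 to Cox7a2 (-0.020 to 0.073). The cause was not tested. A pseudocount of 10, no filter, a minimum mean of 100 normalized reads, quantile normalization and limma-voom on recovered reads turned none of the named members that they tested; the minimum mean left out Cox4i2. The groups share no replicate numbers, but the animal numbers form adjacent pairs. Deviations of such pairs correlated across genes by -0.083 to 0.19, so pairing was not shown. A replicate block for them called 0; it cannot move the median of 0.098, since each pair holds 1 Cre and 1 Loxp library. Few reads limit Cox4i2 and ATP8, and why they had few was not tested.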
